A study of Mus musculus with 51 samples.

Results

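The ISG15 conjugation pathway was represented by 5 genes, chosen by name: Isg15, which encodes the modifier, and its E1 Uba7, its E2 Ube2l6, its E3 Herc6 and its protease Usp18. They were 5 of the 40077 mouse genes in the deposited tables. The study asked how lowering or raising UBA1, the main E1 of ubiquitin itself, changes tumors and the response of cancer cells to interferon-γ (IFN-γ). Bulk RNA-seq was available for 51 libraries, 35 of them subcutaneous tumors and 16 cultured Myc-CaP cells, a mouse prostate cancer line driven by Myc.

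The cultured cells formed 8 groups of 2 libraries. In the drug experiment, unedited Myc-CaP cells were given no drug (Control) or 50 nM TAK-243, an inhibitor of UBA1, each with or without IFN-γ. In the sgRNA experiment, cells with a control sgRNA (NC) or an sgRNA against Uba1 (sgUba1) were given PBS or IFN-γ. IFN-γ was used at 1 ng/mL for 18 hours. The Myc-CaP tumors, grown in male FVB mice, were 3 with the control sgRNA (sgNC), 7 with sgUba1, 3 with empty vector (EV), 4 with Uba1 overexpressed from a CMV promoter (OE), 6 treated with vehicle and 5 treated with TAK-243 at 25 mg/kg 2 times a week. The tumors of B16-BL6, a mouse melanoma line, came from female C57BL/6 mice and were 3 with the control sgRNA and 4 with sgUba1. All hosts were immunocompetent and 6 to 8 weeks old. The sgUba1 lines were sublines grown from single cells in which Uba1 was only partly depleted, so the edit and the chosen clone cannot be told apart. Mice carried tumors in both flanks and the labels number tumors, not mice, and nothing in the labels ties the 2 cell libraries of a group to separate cultures. The p-values therefore measure only the spread between these libraries, which may in part be technical.

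ISG15 is a ubiquitin-like protein that is itself induced by interferon. It is attached to other proteins by a cascade that parallels ubiquitination: UBA7 activates it, UBE2L6 carries it, HERC6 is the main ligase that transfers it in mice, and USP18 removes it. USP18 also binds the type I interferon receptor and dampens its signalling. UBA1 runs the parallel step for ubiquitin and is not part of the ISG15 cascade.

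On GRCm38, with GENCODE M21 gene bounds, Isg15 (ENSMUSG00000035692.7) lies at chr4:156199424-156200818 on the minus strand, Uba7 (ENSMUSG00000032596.14) at chr9:107975505-107984060, Ube2l6 (ENSMUSG00000027078.14) at chr2:84798828-84810335, Herc6 (ENSMUSG00000029798.11) at chr6:57581000-57664632 and Usp18 (ENSMUSG00000030107.10) at chr6:121245906-121270917, the last 4 on the plus strand. RefSeq promoter windows (GRCm38.p6, 250 bases before to 50 after the start) were matched for 4 members and not for Usp18. In cultured cells IFN-γ raised Uba7 and Ube2l6, while Isg15, with a Control-cell difference like that of Ube2l6, did not pass the test. The upstream sequences of these 3 genes are therefore shown. They are printed 5′ to 3′ on the strand of the gene and end at its start, and capitals mark matches to the core of the interferon-stimulated response element (ISRE), a pair of GAAA repeats with any 2 bases between them, the element through which interferon-stimulated factors act. For Uba7 the 188 bases before the GENCODE gene start are given.
Isg15 (chr4:156200819-156201068, minus strand): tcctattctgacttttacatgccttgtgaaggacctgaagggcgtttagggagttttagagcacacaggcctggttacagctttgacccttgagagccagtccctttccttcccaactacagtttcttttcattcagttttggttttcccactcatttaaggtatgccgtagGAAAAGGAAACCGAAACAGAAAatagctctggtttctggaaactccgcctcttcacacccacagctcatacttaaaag
Uba7 (chr9:107975317-107975504, plus strand): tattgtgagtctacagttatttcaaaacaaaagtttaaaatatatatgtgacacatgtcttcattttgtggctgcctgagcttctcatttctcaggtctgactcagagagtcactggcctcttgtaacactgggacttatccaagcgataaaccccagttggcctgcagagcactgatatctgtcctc
Ube2l6 (chr2:84798578-84798827, plus strand): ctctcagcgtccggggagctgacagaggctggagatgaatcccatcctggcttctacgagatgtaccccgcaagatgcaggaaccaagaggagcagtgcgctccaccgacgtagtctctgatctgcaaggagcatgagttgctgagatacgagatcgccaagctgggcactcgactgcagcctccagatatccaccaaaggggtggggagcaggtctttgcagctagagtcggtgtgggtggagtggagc
Isg15 held 3 overlapping ISRE matches, starting 78, 72 and 66 bases before its start. On either strand no ISRE match lay in the windows of Uba7, Ube2l6 or Herc6, and no match to the gamma-activated site (GAS), TTC and GAA with any 3 bases between them, lay in any of the 4. An ISRE match was present in 3.44% of the 32851 windows of the table and a GAS match in 8.3%. A window without a match shows only that these letters are not within it.

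Total counts ranged from 8652097 to 38032395 per library, with the tumors of the overexpression experiment the shallowest. Melanocyte and Myc-CaP epithelial markers separated the tumors by line: the summed level of 6 melanocyte genes was 9030 to 9900 TPM (transcript abundance scaled by length and by library) in B16-BL6 tumors and 6.88 to 16.3 TPM in Myc-CaP tumors. Uba1, measured in CPM (counts scaled by library size), checked the labels. It was 533 and 526 CPM in NC cells and 295 and 283 CPM in sgUba1 cells, 410 to 455 CPM in the B16-BL6 sgNC tumors and 208 to 247 CPM in the sgUba1 tumors, and 278 to 310 CPM with empty vector and 631 to 747 CPM with Uba1 overexpression. In Myc-CaP tumors labelled sgUba1, tumors 1, 2 and 3 held 197, 202 and 211 CPM, but tumors 4, 5, 6 and 7 held 373, 361, 368 and 383 CPM, above the 320 to 337 CPM of the 3 sgNC tumors. Uba1 RNA was thus not lower in these 4 libraries. The study checked depletion by Sanger sequencing and immunoblot, and the labels do not give the sgRNA or the subline of a tumor. Results from this experiment are given with and without these 4 tumors. Ptprc, which encodes the leukocyte marker CD45, had 0 to 3 counts in every cell library and 4.48 to 38.6 CPM in tumors.

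The 5 genes were unevenly expressed, and the cells held almost no Usp18. Per transcript length, Isg15 had a median of 31.9 TPM over the 35 tumors (7.96 to 50.5) and 8.29 TPM over the 16 cell libraries (4.9 to 12.4). Uba7 had 7.07 TPM in tumors (1.33 to 14.5) and 0.673 TPM in cells (0.0968 to 2.57). Ube2l6, the carrier enzyme, was the member whose tumor and cell levels were closest, at 27.1 TPM in tumors (8.6 to 42.2) and 23.4 TPM in cells (15.0 to 33). Herc6 had 5.78 TPM in tumors (2.75 to 18) and 2.94 TPM in cells (2.63 to 4.14). Usp18 had 7.09 TPM in tumors (0.0885 to 26.9) and 0.112 TPM in cells (0.0 to 0.558), with 3 counts or fewer in 10 of the 16 cell libraries. In TPM, Ube2l6 thus lay above Uba7 in all 16 cell libraries. In these bulk libraries, fewer cells of a type and less RNA per cell cannot be told apart.

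**Figure D1:**
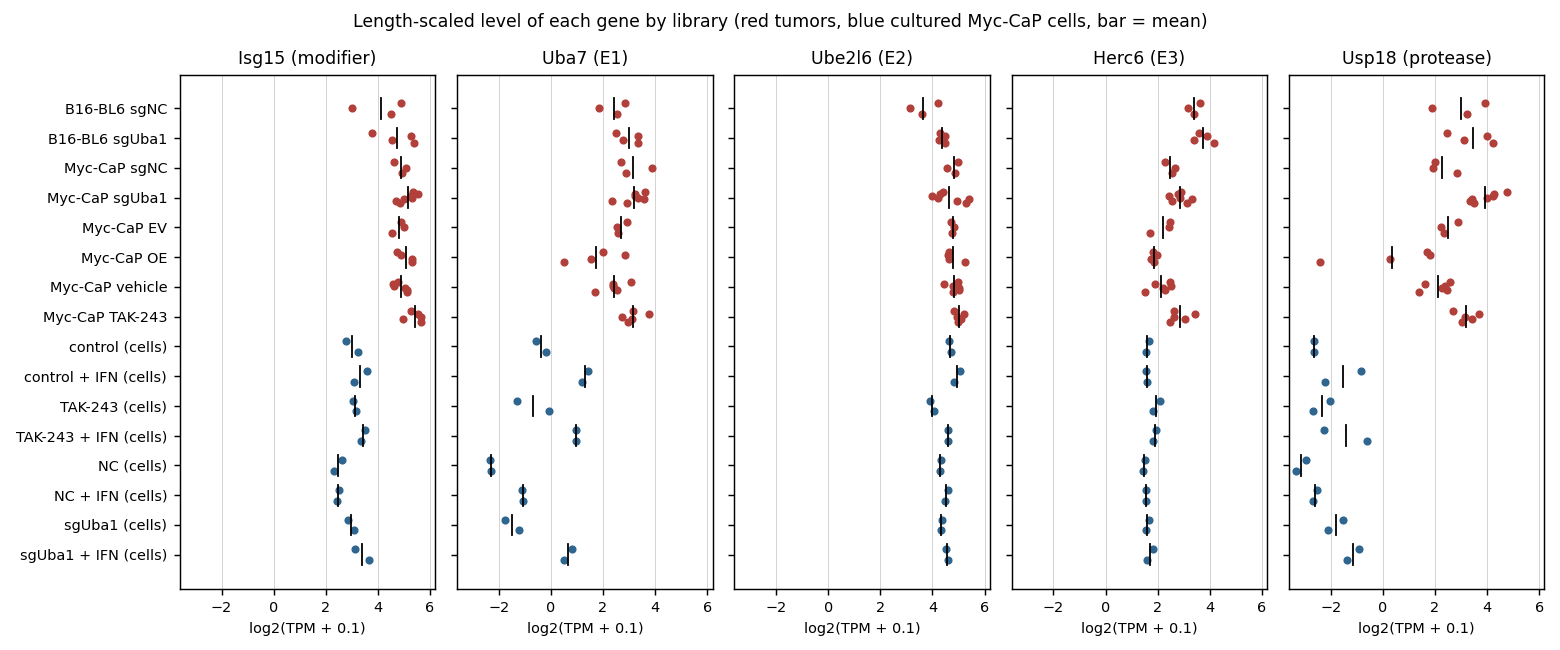
Level of the 5 genes in each of the 51 libraries, in TPM on a log axis, by group. Points are libraries and bars are group means; Usp18 lies between 0.0 and 0.558 TPM in all cell libraries, and Herc6 is between 8.85 and 18 TPM in B16-BL6 tumors and between 2.75 and 10.7 TPM in Myc-CaP tumors.

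Ordered by mean TPM over the 16 groups, Isg15 led in TAK-243-treated Myc-CaP tumors (43.6 ± 8.39 TPM, SD, n = 5) and was lowest among tumors in B16-BL6 sgNC (20.0 ± 11, n = 3) and lowest of all in IFN-γ-treated NC cells (5.38 ± 0.207, n = 2). Uba7 was highest in Myc-CaP sgNC tumors (9.35 ± 4.45, n = 3) and lowest in untreated NC cells (0.101 TPM). Ube2l6 ran from 32.0 ± 3.18 TPM in TAK-243-treated tumors (n = 5) to 12.9 ± 4.84 in B16-BL6 sgNC tumors (n = 3), and IFN-γ-treated Control cells stood in the order next to the top, at 30.6 ± 3.37 (n = 2). Herc6 was highest in B16-BL6 sgUba1 tumors (13.7 ± 3.3, n = 4), followed by B16-BL6 sgNC tumors (10.6 ± 1.78, n = 3). Usp18 was highest in Myc-CaP tumors labelled sgUba1 (16.1 ± 6.07, n = 7) and, among tumors, lowest with Uba1 overexpression (1.93 ± 1.6, n = 4). Among the 8 tumor groups, neighbours in the order overlapped in range for each of Isg15, Uba7 and Usp18. Among cells, neighbours separated for Uba7 in particular, where Control cells with IFN-γ lay above TAK-243 cells with IFN-γ, and these above sgUba1 cells with IFN-γ and above Control cells without it.

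IFN-γ raised the E1 and, by less, the E2 in cultured cells, while the modifier itself did not pass the test. In Control cells Uba7 was 1.6 and 1.19 CPM and in Control cells with IFN-γ 5.28 and 6.25 CPM. With TAK-243 it was 1.78 and 0.642 CPM, against 4.08 and 4.07 CPM with TAK-243 and IFN-γ. The ranges did not overlap in either pair. The rise was 4.14-fold without the drug (log2 2.05 ± 0.29 SE, adjusted p = 2.57e-06) and 3.19-fold with it (log2 1.67 ± 0.315, adjusted p = 0.0006).

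In the sgRNA experiment Uba7 started lower. NC cells held 0.221 and 0.196 CPM, 6 counts in each library, and rose to 0.821 and 0.798 CPM with IFN-γ (log2 1.94 ± 0.406, adjusted p = 0.0329). Without NC IFN-γ replicate 1 or 2 that adjusted p was 0.242 or 0.162. The sgUba1 cells went from 0.677 and 0.395 CPM to 2.96 and 3.52 CPM, 6.01-fold (log2 2.59 ± 0.268, adjusted p = 0.000535).

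Ube2l6 followed in smaller steps. It was 22.7 and 21.0 CPM in Control cells and 29.2 and 33.9 CPM after IFN-γ (1.45-fold, log2 0.53 ± 0.093, adjusted p = 4.92e-05), and 15.5 and 14.3 CPM with TAK-243 and 23.4 and 22.5 CPM with both (log2 0.62 ± 0.105, adjusted p = 0.000175). In NC cells it was 18.4 and 17.6 CPM before and 21.4 and 22.8 CPM after IFN-γ (log2 0.30 ± 0.072, adjusted p = 0.0474), and in sgUba1 cells 18.3 and 17.6 CPM before and 22.6 and 21.6 CPM after (log2 0.30 ± 0.070, adjusted p = 0.0494). The last 2 values stood close to the threshold: in sgUba1 cells the call was lost without any of the 4 libraries (adjusted p from 0.105 to 0.415), and in NC cells without NC replicate 2 (0.0688) or NC IFN-γ replicate 1 (0.246) or 2 (0.258).

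Isg15 did not pass the IFN-γ test in any group. It was 3.06 and 2.25 CPM in Control cells and 3.17 and 4.59 CPM with IFN-γ (log2 0.55, 95% interval 0.04 to 1.07, adjusted p = 0.102). With each of the 4 libraries left out in turn, this difference ran from log2 0.26 to 0.8. In NC cells it was 1.62 and 1.93 CPM before and 1.81 and 1.9 CPM after IFN-γ (log2 0.06 ± 0.24, adjusted p = 0.911). In sgUba1 cells it was 2.68 and 2.26 CPM before and 4.17 and 2.87 CPM after (log2 0.51 ± 0.204, adjusted p = 0.183). With TAK-243 the IFN-γ difference of Isg15 was log2 0.40 ± 0.255 (adjusted p = 0.379). In Control cells the Isg15 and Ube2l6 differences were of like size, with a wider error for Isg15 (log2 0.55 ± 0.252 and 0.53 ± 0.093). In sgUba1 cells that of Isg15 was the larger, again with a wider error (log2 0.51 ± 0.204 and 0.30 ± 0.070). Whether the responses of these genes differ from each other was not tested. Isg15 held ISRE letters in its window, and Uba7 and Ube2l6 held none of the searched letters in theirs. Whether these letters bear on the response to IFN-γ was not tested.

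Herc6 stayed between 8.44 and 13.5 CPM in all 16 cell libraries, and its IFN-γ differences were log2 0.20 in Control, -0.01 with TAK-243, 0.16 in NC and 0.25 in sgUba1 cells (adjusted p = 0.298, 0.99, 0.332 and 0.141). The Control value turned to -0.02 on the log2(TPM + 1) scale, and the TAK-243 value to 0.01 under another scaling (RLE). Usp18 had 1 and 1 counts in Control cells and 2 and 9 with IFN-γ, a ratio of 5.54 (exact 95% interval 1.21 to 51.4, counting error only), and 14 counts in the sgUba1 cells against 24 with IFN-γ, a ratio of 1.67 (0.831 to 3.5). These counts are too few to order the groups.

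In all, 2 of 4 members tested rose with IFN-γ in Control cells, where 19.6% of all genes did, and 2 of 4 with TAK-243, where 5.76% did. In NC cells 2 of 5 rose against 3.03% of all genes, and in sgUba1 cells 2 of 5 against 1.20%. Usp18 did not pass the filter on low counts in the drug experiment. The background depends on scaling: among genes called in Control cells 67.6% were higher, but 6.69% on the log2(TPM + 1) scale, where the median of all genes moved from 0.04 to -0.14. In NC cells the share was 77.9%, and 65.8% with RLE scaling, and in sgUba1 cells 42.0%, and 94.1% on the log2(TPM + 1) scale.

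**Figure D2:**
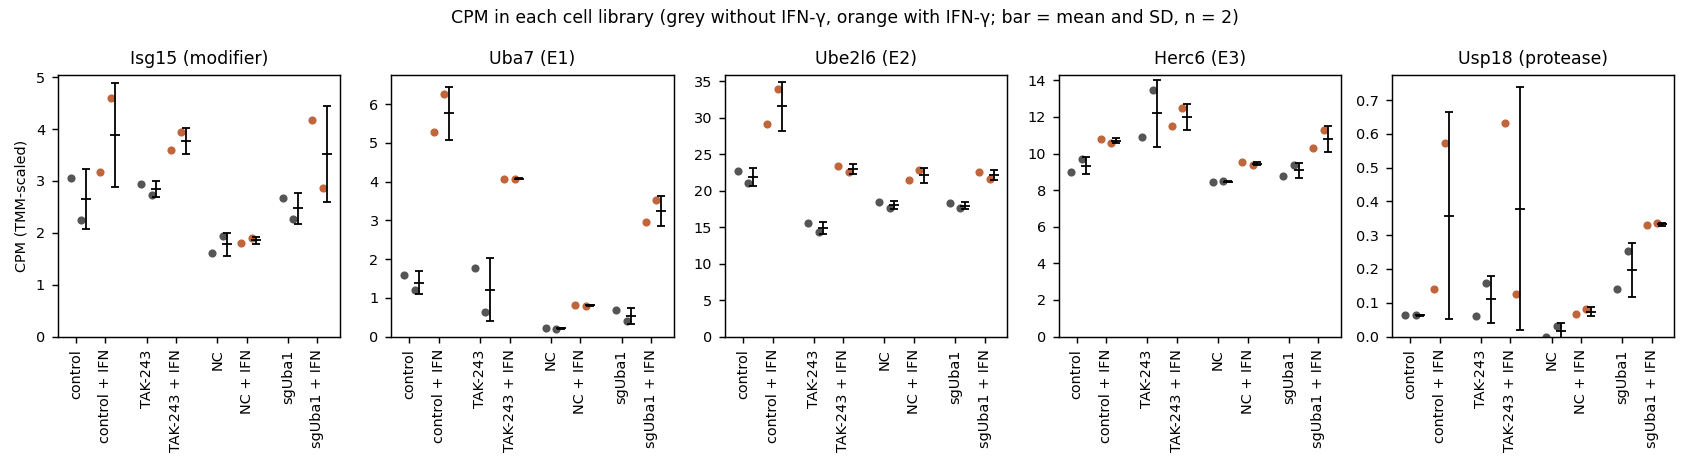
CPM of the 5 genes in the 16 cell libraries, drug experiment and sgRNA experiment, without and with IFN-γ. Points are libraries and bars are the means of 2; Uba7 rises from 0.221 and 0.196 to 0.821 and 0.798 CPM in NC cells and from 0.677 and 0.395 to 2.96 and 3.52 CPM in sgUba1 cells, while Herc6 stays between 8.44 and 13.5 CPM.

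Cells with sgUba1 and cells with the UBA1 inhibitor were read against their own controls, and comparisons within an experiment share libraries. With sgUba1 the modifier and its E1 were higher under IFN-γ: Isg15 was 1.81 and 1.9 CPM in NC cells and 4.17 and 2.87 CPM in sgUba1 cells (1.9-fold, log2 0.92 ± 0.214, adjusted p = 0.005), and Uba7 was 0.821 and 0.798 against 2.96 and 3.52 CPM (3.99-fold, log2 2.0 ± 0.253, adjusted p = 9.59e-05). Both calls held with any single library left out. Usp18 had 2 and 3 counts in NC and 12 and 12 in sgUba1 cells, a ratio of 4.71 (exact 95% interval 1.76 to 15.8). Its adjusted p was 0.0234, and 0.0823 to 0.126 with any of the 4 libraries left out. Herc6 (log2 0.19 ± 0.088, adjusted p = 0.115) did not pass. Ube2l6 was 21.4 and 22.8 against 22.6 and 21.6 CPM, with a 95% interval of -0.15 to 0.15 around log2 0.00. Thus 3 of 5 members were called, all higher, where 39.4% of all genes were called and 17.0% were higher.

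Without IFN-γ, 2 of 5 members were called in sgUba1 cells, against 29.7% of all genes. Uba7 was 6 and 6 counts in NC and 24 and 14 in sgUba1 cells (log2 1.35 ± 0.434, adjusted p = 0.0364), which was lost without NC replicate 1 (0.0719) or 2 (0.13) or sgUba1 replicate 1 (0.284). Usp18 had 0 and 1 counts in NC and 5 and 9 in sgUba1 cells, a ratio of 11.6 (exact 95% interval 1.76 to 490.0) with an adjusted p of 0.0284, lost without NC replicate 1 (0.133) or sgUba1 replicate 2 (0.163). Isg15 was 1.62 and 1.93 against 2.68 and 2.26 CPM (log2 0.47 ± 0.229, adjusted p = 0.155). Ube2l6 was 18.4 and 17.6 against 18.3 and 17.6 CPM, with a 95% interval of -0.16 to 0.16.

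With TAK-243, Ube2l6 was lower in both conditions. It fell from 22.7 and 21.0 to 15.5 and 14.3 CPM without IFN-γ (log2 -0.54 ± 0.105, adjusted p = 3.71e-05) and from 29.2 and 33.9 to 23.4 and 22.5 CPM with it (log2 -0.46 ± 0.093, adjusted p = 6.52e-05). Both calls held with any single library left out. Herc6 was 9.0 and 9.68 CPM in Control and 10.9 and 13.5 CPM with TAK-243 (log2 0.37 ± 0.132, adjusted p = 0.0157), a rise lost without Control replicate 1 (0.0975) or TAK-243 replicate 2 (log2 0.17, adjusted p = 0.348). With IFN-γ its difference was log2 0.17 (adjusted p = 0.262).

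Isg15 was 3.06 and 2.25 CPM in Control and 2.95 and 2.73 CPM with TAK-243 (log2 0.10 ± 0.267, adjusted p = 0.759), and with IFN-γ its difference was log2 -0.05 ± 0.24 (adjusted p = 0.87), which was 0.11 on the log2(TPM + 1) scale. Uba7 differed by log2 -0.13 ± 0.377 without IFN-γ (adjusted p = 0.789) and by log2 -0.50 ± 0.245 with it (adjusted p = 0.0702). Usp18 had 2 counts over both Control libraries and 3 with TAK-243, and 11 against 11 under IFN-γ. So 2 of 4 members were called without IFN-γ, where 66.3% of all genes were, and 1 of 4 with IFN-γ, where 68.2% were.

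For the members, the IFN-γ response itself was not shown to depend on either agent. The response with TAK-243 minus that without was log2 -0.38 for Uba7 (95% interval -1.3 to 0.55), -0.15 for Isg15 (-0.89 to 0.59), 0.08 for Ube2l6 and -0.20 for Herc6, and none of the 4 was called against 2.38% of all genes. The response in sgUba1 minus that in NC cells was log2 0.65 for Uba7 (-0.56 to 1.85) and 0.45 for Isg15 (-0.24 to 1.15), with none of 5 called against 4.64% of all genes. Both counts, from edgeR, were 0 also at an unadjusted p under 0.05 and with limma-voom, and DESeq2 gave an adjusted p for Ube2l6 in sgUba1 alone (none called). Over all genes, an unadjusted p under 0.05 was seen for 2154 of 14551 with TAK-243 and 3342 of 15530 with sgUba1.

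Taking the effect of TAK-243 minus that of sgUba1 in a joint fit of both experiments, 3 of 5 members differed under IFN-γ, against 56.7% of all genes. Uba7 differed by log2 -2.51 (95% interval -3.31 to -1.71, adjusted p = 1.12e-05), Isg15 by log2 -0.99 (-1.67 to -0.3, adjusted p = 0.0142) and Ube2l6 by log2 -0.47 (-0.72 to -0.23, adjusted p = 0.00167). In all 3 the effect against its own control, not the level, was lower with the drug. Under IFN-γ mean Uba7 was 1.87 TPM with TAK-243 and 1.48 in sgUba1 cells, beside 2.38 in Control and 0.372 in NC cells. The Isg15 difference was lost without Control IFN-γ replicate 2 (log2 -0.7, adjusted p = 0.127) or sgUba1 IFN-γ replicate 1 (-0.7, adjusted p = 0.0913). Without IFN-γ, Ube2l6 differed (log2 -0.56 ± 0.126, adjusted p = 0.000762) and was the 1 member of 5 called, against 55.3% of all genes, while Uba7 (log2 -1.49, adjusted p = 0.0516) and Isg15 (log2 -0.39, adjusted p = 0.38) did not pass. The agents differ in kind, since the drug acted for 18 hours and the sgUba1 line is a clone.

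Other genes of the pathway were read in the same fits. Of 14 genes that take part in ISG15 conjugation, deconjugation or signalling through free ISG15 and USP18, 13 were tested in the drug experiment. With TAK-243, 6 rose and 3 fell without IFN-γ, and 6 rose and 4 fell with it, against the 66.3% and 68.2% called over all genes. Trim25, a ligase reported for ISG15 and itself a ubiquitin ligase, fell by 0.76 on the log2 scale (adjusted p = 3.22e-10), whereas Ube2e1, an E2, rose by log2 0.75 (adjusted p = 7.63e-09), and Arih1, a ligase of the RBR type, by log2 0.73 (adjusted p = 6.9e-18). In sgUba1 cells 4 of 13 rose and none fell without IFN-γ, and 4 rose and 3 fell with it, against 29.7% and 39.4% of all genes called. The 4 that rose without IFN-γ were Ube2e1 (log2 0.72, adjusted p = 5.13e-05), Ifnar2, a chain of the type I interferon receptor to which USP18 binds (0.48, adjusted p = 0.00502), Stat2, a partner of USP18 (0.39, adjusted p = 0.00864), and Usp14, a proteasome-associated deubiquitinase (0.21). Trim25 differed there by log2 0.02 (adjusted p = 0.843).

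Among 9 genes for E1 enzymes of ubiquitin-like proteins, TAK-243 raised 4 and lowered 2 without IFN-γ, and raised 4 and lowered 4 with it, beside the 66.3% and 68.2% of all genes called. Without IFN-γ the largest rises were those of Uba3, the catalytic part of the NEDD8 E1, at log2 0.77 and Uba6, the other ubiquitin E1, at log2 0.62. In sgUba1 cells, Uba1 (log2 -0.87) and Uba3 (log2 -0.23) were lower without IFN-γ, and with it Uba1 (log2 -1.13) was the 1 gene of 9 called, where 29.7% and 39.4% of all genes were called.

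The members were set beside 30 genes usually read as interferon-stimulated through ISRE elements (members left out) and 21 typical IFN-γ targets. In Control cells, IFN-γ raised 15 of the 19 IFN-γ targets tested and lowered none (median log2 3.77, against 0.04 over all genes), with Gbp2, a guanylate-binding GTPase, up by log2 7.19. Of 18 ISRE-type genes tested, 7 rose and 3 fell (median log2 0.27). In NC and sgUba1 cells, 12 and 14 of 18 IFN-γ targets rose (median log2 2.16 and 3.39), and 3 and 8 of 19 ISRE-type genes (median 0.18 and 0.65). Of all genes, 19.6% rose in Control, 3.03% in NC and 1.20% in sgUba1 cells. For comparison the members' median under IFN-γ was log2 0.54 in Control, 0.51 with TAK-243, 0.30 in NC and 0.51 in sgUba1 cells. The response in sgUba1 minus that in NC cells was positive for 16 of 18 IFN-γ targets (median log2 0.83, 3 called higher). For ISRE-type genes 14 of 19 were positive (0.31, 2 called higher), where 0.663% of all genes were called higher. The response with TAK-243 minus that without was positive for 9 of 19 IFN-γ targets (-0.04, 1 called higher and 1 lower). For ISRE-type genes 11 of 18 were positive (0.22, 1 called higher), where 0.371% of all genes were called higher. Under IFN-γ, sgUba1 against NC cells had 13 of 19 ISRE-type genes higher and none lower (median log2 0.77, members 0.92). Of all genes 17.0% were higher and 22.4% lower there. The largest rises were led by Samd9l (log2 3.78) and Rtp4, Mx2 and Parp14, all antiviral or ADP-ribosylation genes. TAK-243 under IFN-γ had 7 of 18 ISRE-type genes higher and 5 lower (median log2 0.53, members -0.25). Of all genes 32.0% were higher and 36.2% lower with the drug. RefSeq windows were matched for 22 symbols of the ISRE-type list, of which 13 held the ISRE letters and 5 the GAS letters, and for 16 IFN-γ targets, of which 9 held the ISRE letters and 6 the GAS letters.

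In tumors of mice given TAK-243, all 5 members had higher means than with vehicle, and none passed the adjusted test. Usp18 had 2.39, 4.95 and 5.31 CPM as the lowest, median and highest of 6 vehicle tumors, against 6.84, 9.63, 7.94, 10.6 and 7.03 CPM with TAK-243. The groups did not overlap, which was so in this direction for 0.884% of all genes. The difference was 1.94-fold (log2 0.96 ± 0.212, 95% interval 0.5 to 1.42, unadjusted p = 0.000644, adjusted p = 0.1). With each of the 11 tumors left out in turn, the adjusted p ran from 0.0494 to 0.247. Of these 11 fits 1 passed, that without TAK-243 replicate 5. With DESeq2 and all tumors the adjusted p was 0.00278.

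The other members overlapped between vehicle and drug. Isg15 was 8.02 to 11.3 CPM with vehicle and 14.6, 9.09, 16, 13.2 and 13.1 CPM with TAK-243 (log2 0.48 ± 0.153, adjusted p = 0.184). Uba7 was 6.55 to 16.1 CPM with vehicle and 14.2, 16.2, 13.1, 23.7 and 19.2 CPM with TAK-243 (log2 0.65 ± 0.205, adjusted p = 0.184). Herc6 was 8.76 to 17.5 CPM with vehicle and 15.6, 23.6, 18.7, 29.1 and 20.3 CPM with TAK-243 (log2 0.64 ± 0.185, adjusted p = 0.163). Ube2l6 was 19.9 to 27.9 CPM and 24.4 to 27.9 CPM (log2 0.08 ± 0.092, adjusted p = 0.716). In all, 0 of 5 members were called by edgeR, which called 0.145% of all genes. An unadjusted p under 0.05 was seen for 4 of 5 members, and for 2587 of all 17299 genes. DESeq2 called 2 members (Usp18 and Herc6) and 544 of all genes, and limma-voom 0 members and 26 genes.

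**Figure D3:**
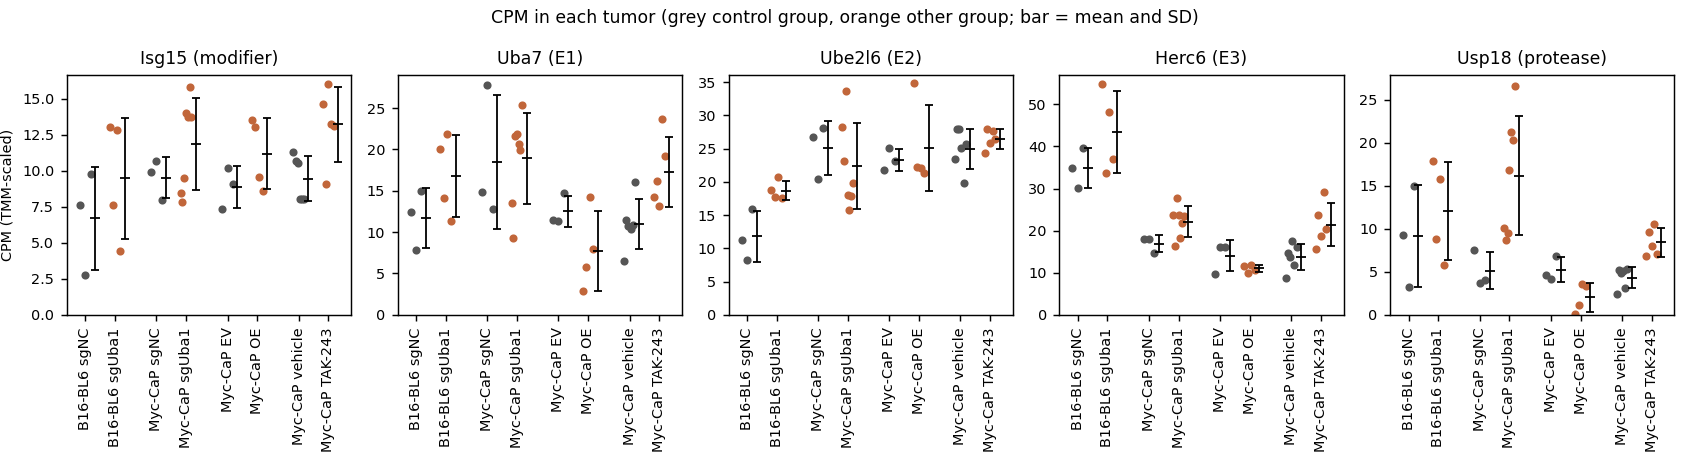
CPM of the 5 genes in the tumor libraries of the 4 tumor experiments on linear axes. Points are tumors and bars are group means; the Usp18 points of the 5 TAK-243-treated tumors lie above those of all 6 vehicle tumors, and the Isg15 points of these groups overlap.

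In Myc-CaP tumors labelled sgUba1, Usp18 stood above the control in all 7 tumors. It was 7.56, 3.73 and 4.1 CPM in sgNC and 8.75, 16.8 and 26.6 CPM as the lowest, median and highest of the 7, 3.14-fold (log2 1.65 ± 0.419, 95% interval 0.73 to 2.58, adjusted p = 0.0602). The groups did not overlap, as for 5.54% of all genes in this direction. DESeq2 gave an adjusted p of 0.00179. With each of the 10 tumors left out in turn, the adjusted p ran from 0.0418 to 0.223. Of these 10 fits 1 passed, that without sgUba1 replicate 2. Herc6 was 14.6 to 18.1 CPM in sgNC and 16.4, 23.5 and 27.8 CPM as the lowest, median and highest with sgUba1, 6 of 7 above all of sgNC (log2 0.39 ± 0.168, adjusted p = 0.193). Isg15 (log2 0.32, adjusted p = 0.457), Uba7 (0.03, 0.961) and Ube2l6 (-0.17, 0.70) did not pass. In all 0 of 5 members were called by edgeR, where 3.04% of all genes were called. An unadjusted p under 0.05 was seen for 2 members, and for 3835 of all 16202 genes. DESeq2 called 1 member and 1862 of all genes, and limma-voom 0 members and 300 genes.

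Tumor by tumor, Usp18, Isg15 and Ube2l6 differed between tumors 1 to 3, where Uba1 was low, and tumors 4 to 7, where it was not. Usp18 was 10.1, 8.75 and 9.52 CPM in tumors 1 to 3, above the 3.73 to 7.56 CPM of the sgNC tumors. In tumors 4 to 7 Usp18 was 16.8, 21.2, 20.3 and 26.6 CPM. Isg15 was 8.43, 7.79 and 9.52 CPM in tumors 1 to 3, beside 9.88, 10.7 and 7.96 CPM in the sgNC tumors, and 14.0, 13.7, 15.8 and 13.7 CPM in tumors 4 to 7. Ube2l6 was 28.2, 23.1 and 33.6 CPM in tumors 1 to 3 and 18, 15.7, 17.8 and 19.9 CPM in tumors 4 to 7, beside 26.7, 20.4 and 28.1 CPM in sgNC.

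Without tumors 4 to 7 the differences from sgNC were log2 0.87 for Usp18 (adjusted p = 0.191), -0.15 for Isg15 (0.687), -0.32 for Uba7 (0.702), 0.17 for Ube2l6 (0.67) and 0.41 for Herc6 (0.344). No member was called by edgeR, and 1 of all genes was. The signs of Isg15, Uba7 and Ube2l6 turned, and those of Usp18 and Herc6 did not.

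**Figure D4:**
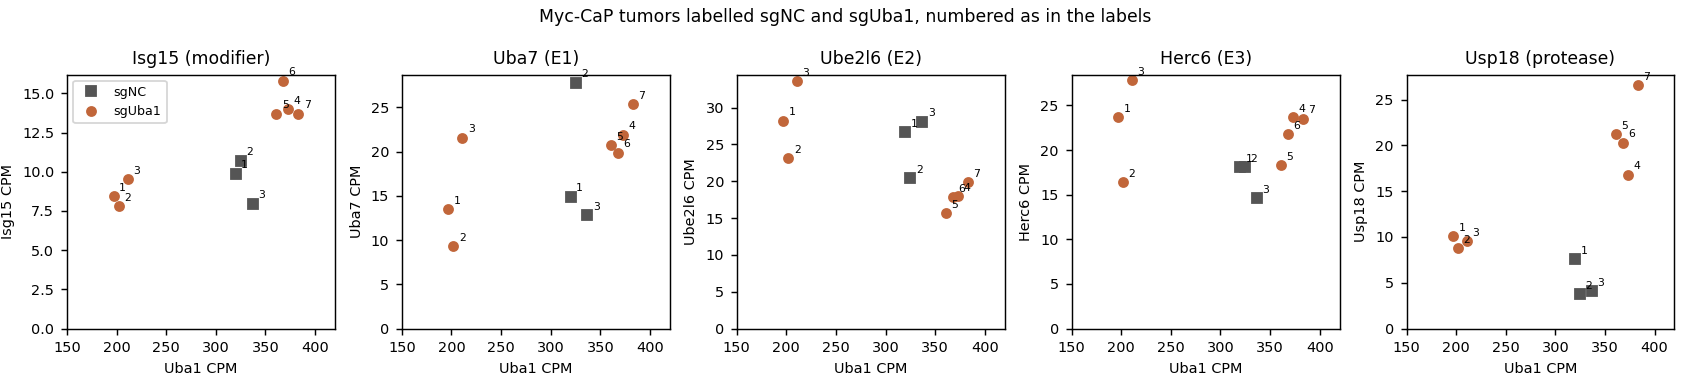
CPM of each of the 5 genes against CPM of Uba1 in Myc-CaP tumors of the sgRNA experiment, with sgUba1 points numbered by tumor. Tumors 1 to 3 lie at 197 to 211 CPM of Uba1 and tumors 4 to 7 at 361 to 383 CPM, above the sgNC tumors at 320 to 337 CPM, and the Usp18 points of tumors 4 to 7, at 16.8 to 26.6 CPM, lie above the others.

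In B16-BL6 tumors, Ube2l6 was the member that separated the groups. It was 11.3, 8.18 and 15.9 CPM in sgNC and 18.7, 17.7, 20.7 and 17.6 CPM in sgUba1, all 4 above all 3, as for 7.29% of all genes in this direction (log2 0.67 ± 0.187, 95% interval 0.25 to 1.08, unadjusted p = 0.00512, adjusted p = 0.152). DESeq2 gave an adjusted p of 0.0158. With each of the 7 tumors left out in turn, log2 ran from 0.46 to 0.94 and the adjusted p from 0.0242 to 0.419. Of these 7 fits 1 passed, that without sgNC replicate 4. Uba7 was 12.4, 7.81 and 15.0 CPM in sgNC and 20.1, 14.1, 21.8 and 11.3 CPM in sgUba1 (log2 0.52 ± 0.257, adjusted p = 0.343). Isg15 (log2 0.50, 95% interval -0.47 to 1.47, adjusted p = 0.594), Herc6 (0.32, 0.366) and Usp18 (0.40, -0.68 to 1.47, 0.714) overlapped. In all 0 of 5 members were called by edgeR against 0.724% of all genes. An unadjusted p under 0.05 was seen for 1 of 5 members, and for 2861 of all 17539 genes. DESeq2 called 1 member and 534 of all genes, and limma-voom 0 members and 135 genes. The effect in B16-BL6 minus that in Myc-CaP tumors was log2 0.82 for Ube2l6 (adjusted p = 0.201) and -1.27 for Usp18 (0.349). None of 5 was called against 1.52% of all genes. An unadjusted p under 0.05 was seen for 1 member, and for 3211 of all 17513 genes. DESeq2 and limma-voom called 0 members, against 1179 and 301 of all genes. In that joint fit each effect was taken against the control of its own line. Alternative settings of that fit included leaving out Myc-CaP tumors 4 to 7. Over them the difference ran from log2 0.49 to 0.92 for Ube2l6 and from -1.29 to -0.49 for Usp18, with 0 members called.

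In tumors with Uba1 overexpression no member passed the test. Usp18 was 4.59, 4.19 and 6.88 CPM with empty vector and 0.0991, 1.17, 3.59 and 3.32 CPM with Uba1, the lowest of these resting on 1 count. All 4 were below all 3, as for 10.1% of all genes in this direction (log2 -1.34 ± 0.669, 95% interval -2.87 to 0.19, unadjusted p = 0.079, adjusted p = 0.328). Uba7 was 11.5, 11.4 and 14.7 CPM with empty vector and 2.87, 5.75, 14.3 and 7.92 CPM with Uba1 (log2 -0.69 ± 0.439, adjusted p = 0.431). Isg15 (log2 0.33, adjusted p = 0.438), Ube2l6 (0.11, 0.792) and Herc6 (-0.34, 0.388) did not pass. None of 5 members was called by edgeR against 0.0269% of all genes. The count was also 0 at an unadjusted p under 0.05, with DESeq2 and with limma-voom, against 2698, 707 and 2 of all 14853 genes.

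**Figure D5:**
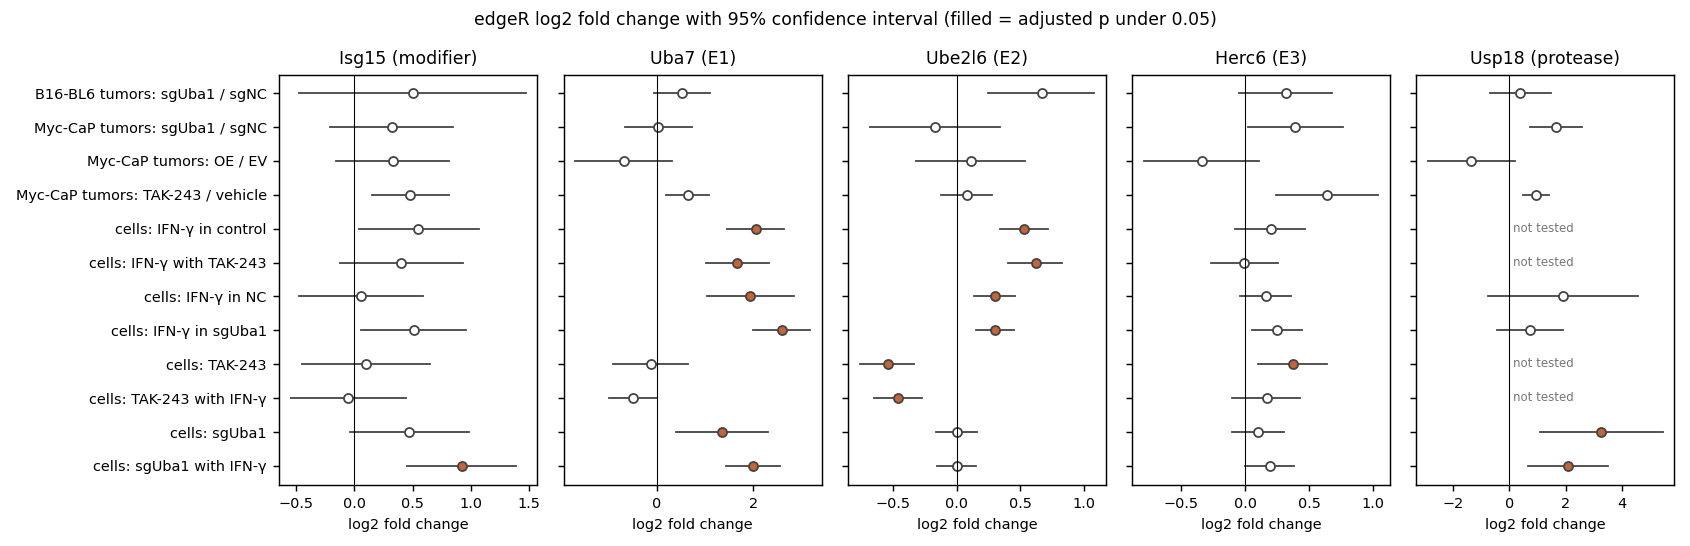
Log2 difference of each of the 5 genes in the 4 tumor and 8 cell comparisons from edgeR. Error bars are 95% intervals, and points are filled where the adjusted p is under 0.05. Ube2l6 lies below 0 in both TAK-243 comparisons of cells, at -0.54 and -0.46, and Uba7 above 0 in all 4 IFN-γ comparisons; Usp18 values in cells rest on 0 to 12 counts.

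The ISRE-type genes shared a sign in each tumor experiment, with few calls by edgeR. Of the 30 ISRE-type genes, 30 had a positive log2 difference in TAK-243-treated tumors (median 0.75), 30 in Myc-CaP tumors labelled sgUba1 (0.93, 1 called) and 29 in B16-BL6 sgUba1 tumors (0.42), and 0 with Uba1 overexpression (-0.82), with medians over all genes of 0.00 to 0.01. DESeq2 called 12 of them in TAK-243-treated tumors, where it called 544 of 17299 genes, and 15 in tumors labelled sgUba1, where it called 1862 of 16202 genes. Without tumors 4 to 7, 28 of 30 were positive (median 0.36) and 0 were called by edgeR. The gene called was Dhx58, an RNA sensor relative (log2 1.16, adjusted p = 0.0273). Of the 21 IFN-γ targets edgeR called none in any tumor experiment. In TAK-243-treated tumors 12 of 21 were positive (median log2 0.11), in Myc-CaP tumors labelled sgUba1 18 of 21 (1.06, and 1.51 without tumors 4 to 7), in B16-BL6 sgUba1 tumors 18 of 20 (0.75) and with Uba1 overexpression 1 of 21 (-1.38). DESeq2 called 4 higher and 1 lower in Myc-CaP tumors labelled sgUba1, 9 lower with overexpression, where it called 707 of 14853 genes, and 0 in the other 2 experiments. The leukocyte markers were read in the same tumors, and their summed ranges overlapped between the groups of each experiment. Their summed level, over 23 genes, was 190, 217 and 351 TPM in sgNC tumors and 311 to 602 TPM in those labelled sgUba1, 162 to 261 TPM with vehicle and 253 to 427 TPM with TAK-243, 95.1 to 158 TPM in B16-BL6 sgNC and 152 to 200 TPM in sgUba1, and 256 to 345 TPM with empty vector and 95.1 to 385 TPM with Uba1. Of 14 markers tested in Myc-CaP tumors labelled sgUba1, 3 were called higher (Adgre1, Ptprc and Cd68), where 1.15% of all genes were. Without tumors 4 to 7, edgeR called 0 of all genes higher. Of 15 markers in TAK-243-treated tumors, 3 were called higher (S100a9, S100a8 and Itgam), where 0.0867% of all genes were. None of 16 markers was called in B16-BL6 tumors, against 0.724% of all genes, and none of 10 with overexpression, against 0.0269%. The part of leukocytes in the members' differences was not tested. In the cell libraries, Ptprc was at 0 to 3 counts and 17 to 20 of 21 interferon genes were at 0.

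Over the 35 tumors the genes nearest to each member differed. On log2 CPM centred within each experiment, the genes with the highest Pearson correlation to Usp18 were Irf7, a transcription factor of interferon induction, Oas1a, Apol9a, Xaf1 and Rtp4 (r = 0.95, 0.94, 0.93, 0.93 and 0.93), among 13351 genes ranked. Uba7 lay nearest to Parp14, Oas2 and Rsad2, an antiviral enzyme (0.88 each), and to Usp18 at 0.77. Herc6 lay nearest to Irgm1, an IFN-γ-induced GTPase (0.81), and Dtx3l (0.79), and to Usp18 at 0.57. Isg15 lay nearest to Apobec3 (0.74) and had 0.35 with Usp18 and 0.33 with Uba7. Ube2l6 lay nearest to Ppp1r3b (0.76) and had -0.11 with Usp18. With Irf7 the values were 0.95 for Usp18, 0.82 for Uba7, 0.69 for Herc6, 0.4 for Isg15 and -0.01 for Ube2l6. With Ptprc the values were 0.73 for Usp18, 0.67 for Uba7, 0.65 for Herc6, 0.26 for Isg15 and 0.14 for Ube2l6. Tumors of an experiment share their controls, and the experiments differ in depth.

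Over the 16 cell libraries, Uba7 lay nearest to Tap2 and Irgm1 (0.96 and 0.95) among 11269 genes, although its own mean lay under the floor of log2 CPM 1 set for the genes ranked. Among 11268 genes, Ube2l6 lay nearest to Mfsd2a and Aopep (0.95 and 0.94) and Isg15 to Dcaf13 (0.85). Tap2 is a subunit of the peptide transporter for antigen presentation, and Tapbp and Tap1, of the same complex, were also among the 5 nearest to Uba7 (0.94 and 0.93). Usp18 lay under the same floor and had too few counts there for a pattern.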

How the data were processed

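Bulk RNA-seq of 35 tumors and 16 cell libraries was analysed from the 2 tables that the authors deposited, of expected counts (62.4% of nonzero values were not whole) and of TPM. The submitters' processing notes name kallisto and mm10, without versions. The labels describe poly-A selection, whereas the study's methods describe ribosomal RNA depletion, and which applied is not given in the sources used here. Groups came from the sample titles. The expected counts were rounded, scaled by TMM and tested with edgeR's quasi-likelihood test (edgeR 4.0.16, R 4.3.3) over all genes passing filterByExpr, with Benjamini-Hochberg adjustment over all genes and a threshold of 0.05. Each tumor experiment was fitted alone, each cell experiment over its 8 libraries, and differences between experiments in joint fits, which made 17 comparisons. CPM are the rounded counts scaled by TMM within an experiment, and the log2 CPM used for the correlations have a prior count of 2.

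The members and all gene lists were chosen with earlier results of these data known. Genes named are the members, Uba1, up to 4 called genes per list and comparison by size of change, any ISG15 partner or E1 gene, and the 5 genes most correlated with each member among those with a mean log2 CPM of at least 1. The neighbours of Herc6 in cells are not reported here. All 5 members matched GENCODE M21 by gene ID, Isg15 under another version. Library totals ran from 8652097 to 38032395 counts, and the intervals given for few counts are exact at 95% and cover counting error only. Over 75 pairs of libraries of 1 group none were identical. Alternatives were DESeq2 1.42.0, limma-voom (limma 3.58.1), RLE scaling, other filters, log2(TPM + 1), log2(TPM + 0.1), a replicate block, single groups and each library left out. Leaving out tumors 4 to 7 labelled sgUba1 was added after the data were seen.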

Additional observations from a re-analysis of the deposited data

Results flagged for a closer look

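Ube2l6 in the Uba1-overexpressing Myc-CaP tumors stood at 34.8 CPM in replicate 1 against 22.3, 22.1 and 21.3 CPM in the other 3 tumors. The gap took 0.926 of the range of the group, above the 95% critical value for 4 samples. It was the only such value among 25 group and gene combinations examined, of which chance gives about 1 in 20.

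Tests of the difference between the TAK-243 and the sgUba1 effect in cultured cells, in joint fits, separated 3 members. Ube2l6 differed by log2 -0.56 without IFN-γ (adjusted p = 0.000762, edgeR) and by log2 -0.47 with it (adjusted p = 0.00167). Under IFN-γ Isg15 differed by log2 -0.99 (adjusted p = 0.0142) and Uba7 by log2 -2.51 (adjusted p = 1.12e-05). In each case the effect, taken against the control of its own experiment, was lower for the drug. Among all genes 55.3% and 56.7% were called in these 2 tests.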

How the results depend on the processing

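Of 1200 values of single members under an alternative, 1058 kept direction and side of the threshold, 53 kept direction and lost the call, 18 gained it and 71 changed sign, most of them small. Where a library is left out of a pair, the lone one is assumed to vary like the other groups, and the cause of a changed call was not tested unless stated. Depth limits Usp18 in cells, with 0 to 12 counts a library, and Uba7 in NC cells.

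The count of members called changed as follows. With DESeq2 it was 1 in B16-BL6 tumors (0 with edgeR) and in Myc-CaP sgUba1 tumors (0), 2 in TAK-243-treated tumors (0), 1 for TAK-243 in cells (2), 1 for IFN-γ in NC cells (2) and 0 for sgUba1 without IFN-γ (2, with Usp18 given no adjusted p) and 2 with it (3). For IFN-γ DESeq2 gave 1 in Control (2), 0 with TAK-243 (2) and 1 in sgUba1 cells (2), where the members lost from the edgeR count had no adjusted p. With limma-voom it was 2 for TAK-243 under IFN-γ (1), 1 for IFN-γ in NC cells (2) and 1 for sgUba1 (2). RLE scaling gave 1 for IFN-γ in NC cells. On the log2(TPM + 1) and log2(TPM + 0.1) scales it was 1 and 1 in Myc-CaP sgUba1 tumors, 1 and 1 for IFN-γ in Control cells (2), 0 and 0 with TAK-243 (2), 0 and 0 in NC cells (2), 1 and 1 in sgUba1 cells (2), 1 and 1 for TAK-243 (2) 0 and 1 for sgUba1 (2), and 2 on log2(TPM + 1) for TAK-243 minus sgUba1 under IFN-γ (3). Without a filter on low counts it was 2 for TAK-243 under IFN-γ, 1 for sgUba1, 2 for sgUba1 under IFN-γ (3) and 2 for TAK-243 minus sgUba1 without IFN-γ (1). With at least 10 counts in every library 3 members were tested in cells, and it was 0 for IFN-γ in NC cells, 1 in Control cells, 1 with TAK-243 and 1 in sgUba1 cells, 0 and 1 for sgUba1 without and with IFN-γ, and 2 for TAK-243 minus sgUba1 under IFN-γ (3). With only the groups compared it was 2 for TAK-243 under IFN-γ, 0 for IFN-γ in NC cells and 0 for sgUba1.

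With each library left out the count was 0 to 1 in B16-BL6 sgUba1, Myc-CaP sgUba1 and TAK-243-treated tumors, 2 to 3 for IFN-γ in Control cells, 0 to 2 in NC cells, 1 in sgUba1 cells, 1 to 2 for TAK-243, 0 to 1 for sgUba1, 2 for sgUba1 under IFN-γ, and for TAK-243 minus sgUba1 1 to 2 without and 2 to 4 with IFN-γ.

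Signs turned as follows. Herc6 under IFN-γ in Control cells was -0.02 and -0.03 on the 2 TPM scales, and with TAK-243 0.01 with limma-voom, 0.01 with RLE and 0.00 without a filter. Isg15 for TAK-243 under IFN-γ was 0.01 with at least 10 counts and 0.11 and 0.12 in TPM, its drug interaction 0.02 and 0.03, and its IFN-γ response in NC cells -0.02 and -0.02. Ube2l6, near 0 in sgUba1 cells, was 0.00 without a filter and 0.03 in TPM without IFN-γ, and with IFN-γ 0.01 with DESeq2 and RLE, 0.02 with at least 10 counts, 0.03 in TPM and 0.00 with only the groups compared. Its sgUba1 interaction was 0.00 with limma-voom and without a filter and -0.01 in TPM, and that of Usp18 0.12 and 0.13. Herc6 in B16-BL6 minus Myc-CaP tumors was 0.01 on log2(TPM + 1), and in TAK-243 minus sgUba1 under IFN-γ 0.01 with at least 10 counts and 0.11 and 0.14 in TPM. Without tumors 4 to 7 of Myc-CaP sgUba1, added after the data were seen, Isg15 was -0.15, Uba7 -0.32 and Ube2l6 0.17.

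With single libraries left out the log2 ranges that crossed 0 were -0.01 to 0.95 for Usp18 in B16-BL6, -0.17 to 0.44 for Uba7 in Myc-CaP sgUba1, -0.09 to 0.18 for Ube2l6 with overexpression, -0.15 to 0.16 for Herc6 under IFN-γ with TAK-243, -1.16 to 0.31 for Uba7 and -0.11 to 0.33 for Isg15 with TAK-243, -0.29 to 0.24 for Isg15 with TAK-243 and IFN-γ, -0.39 to 0.15 for Isg15, -0.81 to 0.65 for Uba7 and -0.02 to 0.2 for Ube2l6 in the drug interaction, -0.05 to 0.2 for Isg15 under IFN-γ in NC cells, -0.06 to 0.03 and -0.05 to 0.08 for Ube2l6 with sgUba1 without and with IFN-γ, -0.05 to 0.09 for its interaction, -0.21 to 0.02 for Herc6 and -0.22 to 0.54 for Isg15 in B16-BL6 minus Myc-CaP tumors, and -0.11 to 0.04 for Herc6 in TAK-243 minus sgUba1 under IFN-γ.

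Groups share replicate numbers but nothing in the labels ties them, and deviations of same-numbered libraries correlated from -0.28 to 0.44, so the numbers were not read as pairs. With a replicate block the counts of members called were unchanged in all 17 comparisons; in Myc-CaP sgUba1 tumors, where the block rests on tumors 1 to 3, Isg15 was -0.14, Uba7 -0.31 and Ube2l6 0.17. Over all genes the block moved the calls from 492 to 2 there, from 25 to 8 with TAK-243 in tumors, from 4 to 0 with overexpression, from 443 to 768 for IFN-γ in sgUba1 cells and from 266 to 11 in B16-BL6 minus Myc-CaP tumors. Calls over all genes by DESeq2 were 534 against 127 in B16-BL6, 1862 against 492 in Myc-CaP sgUba1, 707 against 4 with overexpression, 544 against 25 with TAK-243 in tumors and 856 against 1534 for IFN-γ with TAK-243 in cells. For IFN-γ in NC cells they ran from 18 on log2(TPM + 1) to 1460 without a filter, against 603, and in sgUba1 cells from 33 on log2(TPM + 0.1) to 2087 with only the groups compared, against 443. Without tumors 4 to 7 the Myc-CaP sgUba1 count fell to 1.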
